A study of Mus musculus with 8 samples.

Results

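The genes of the ATF4 and unfolded protein stress response were examined in kidneys of p53 null mouse embryos, with kidneys of p53 wild-type embryos beside them. The 39 genes were listed by symbol, and a gene was measured where the RefSeq accession of a probe mapped to that symbol. Of the 39 genes, 37 had a named probe, on 56 probes in all, and 35 had a tested probe, out of 12000 named genes tested. No probe was named for Pycr1, an enzyme of proline synthesis, or for Pdia3, a disulfide isomerase. The only probe of Mthfd2, a mitochondrial folate enzyme, rose well above background in null RNA on 5 of 8 arrays and in wild-type RNA on 4 of 8, and was not tested. All 3 probes of Slc7a11, which encodes the light chain of the cystine and glutamate exchanger, stayed within the background range on each array for null and wild-type RNA, so no ratio is given. To be tested, a probe had to rise well above background in 1 genotype on 50% or more of every replicate's arrays. Of the 35 genes tested, 34 were well above background in both genotypes on all 8 arrays. Cebpg was the exception, with 8 arrays in null and 7 in wild-type RNA.

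Each array carried null RNA in one dye and wild-type RNA in the other, and values are given as log2 ratios with null on top and wild type beneath. The null group was kidney tissue of p53 null C57BL/6 embryos at embryonic day 15.5, and the wild-type group was the same tissue of p53 wild-type C57BL/6 embryos of that age. How the null allele was made, which part of Trp53 it lacks, how many embryos entered each RNA and their sex are not given in the sources used here. There were 3 biological replicates per the series record, of which replicate 1 took up 4 arrays and replicates 2 and 3 took up 2 each, and each replicate had both dye orientations in equal number. Per the file headers, replicate 1 was on slide 1 (scan 1) and replicates 2 and 3 were on slide 2 (scan 2). The number of arrays and of replicates limits the precision.

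The slides differed in ways that touch each result below. Between 57.8% and 60.6% of probes were well above background in null RNA on slide 1, and between 60.3% and 62.8% in wild-type RNA. On slide 2 the shares were 50.1% to 51.4% in null RNA and 46.9% to 48.0% in wild-type RNA. Slide 1 was extracted from scans at 2 intensities and slide 2 was not, per the file headers. The wild-type signals of replicates 2 and 3 differed by an SD of only 0.122 and 0.136 (log2, same dye, over all probes compared), while repeat arrays of 1 RNA in replicate 1 differed by 0.147 to 0.160 in wild type and by 0.131 to 0.151 in null. Between replicate 1 and replicates 2 or 3, on different slides, the SD was 0.760 to 0.838 in null and 0.794 to 0.851 in wild type. Null signals of replicates 2 and 3 differed by 0.169 to 0.193. The wild-type RNA of replicates 2 and 3 thus differed no more than repeat arrays of the same RNA, and the 2 replicates may share it. The number of genes that passed is therefore also given with slide 2 counted once. The slide 2 values and p of single genes below count replicates 2 and 3 separately.

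The targeted gene Trp53 had log2 ratios of −1.08, −0.47 and −0.45 in replicates 1, 2 and 3 on its brighter probe, negative on 8 of 8 arrays. A second Trp53 probe had 0.01, 0.28 and 0.18. A probe outside the deleted part would check nothing, and its position relative to that part is unknown here.

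ATF4 is a transcription factor whose mRNA is translated preferentially once stress kinases phosphorylate the translation factor eIF2. It switches on genes for amino acid uptake, amino acid synthesis and tRNA charging, and with its target CHOP it can drive cell death when stress lasts. The unfolded protein response is the matching programme of the endoplasmic reticulum (ER), in which the sensors IRE1, PERK and ATF6 raise chaperones and degradation factors. Growing tissues also use the amino acid arm without stress, since fast protein synthesis draws on it. p53 is a transcription factor best known for its response to DNA damage, and in other cells it is known to induce Sesn2 and to repress Slc7a11.

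ATF4 and its C/EBP partners bind a composite site, the C/EBP-ATF response element, whereas ATF6 and XBP1 act through the ER stress element and related sites. Promoter windows were taken from RefSeq (GRCm38.p6), from 250 bases before to 50 bases after each gene's start, and both strands were searched. The letters TGATGNAAN of the C/EBP-ATF response element stood in 10 of 40 windows of the listed genes (25%), and in 1299 of all 32851 windows (3.954%). The ER stress element stood in 3 of 40 windows (7.5%), those of Calr, Canx and Pdia6, and in 0.119% of all windows. ERSE-II stood in 1 of 40 windows (2.5%), that of Herpud1, and in 0.037% of all windows. The letters TGACGTGG of the UPR element stood in 0 of 40 windows, and in 0.676% of all windows. The hypoxia response core, ACGTG or GCGTG, stood in 29 of 40 windows (72.5%), and in 43.773% of all windows; the UPR element contains ACGTG. A match describes letters and does not show that a factor binds. Atf6, Cth and Slc7a5 had no window in that table. The windows of 5 genes are shown because they carry these elements and because their genes behaved differently on the arrays: Atf3 (chr1:191183284-191183583, minus strand), Trib3 (chr2:152344011-152344310, minus strand), Asns (chr6:7693160-7693459, minus strand), Herpud1 (chr8:94386179-94386478, plus strand) and Canx (chr11:50325624-50325923, minus strand). Each is written 5′ to 3′ along the gene's strand. Capitals mark the C/EBP-ATF response element in Atf3, Trib3, Asns and Herpud1 (in Atf3, Trib3 and Herpud1 as its reverse complement), ERSE-II as the second stretch in Herpud1, and the ER stress element in Canx.
Atf3: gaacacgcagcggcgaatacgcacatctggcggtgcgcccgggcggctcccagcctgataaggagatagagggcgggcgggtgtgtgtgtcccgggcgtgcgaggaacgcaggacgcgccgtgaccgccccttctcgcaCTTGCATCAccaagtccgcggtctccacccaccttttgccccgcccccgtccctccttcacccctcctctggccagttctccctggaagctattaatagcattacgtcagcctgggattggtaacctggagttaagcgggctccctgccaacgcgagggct
Trib3: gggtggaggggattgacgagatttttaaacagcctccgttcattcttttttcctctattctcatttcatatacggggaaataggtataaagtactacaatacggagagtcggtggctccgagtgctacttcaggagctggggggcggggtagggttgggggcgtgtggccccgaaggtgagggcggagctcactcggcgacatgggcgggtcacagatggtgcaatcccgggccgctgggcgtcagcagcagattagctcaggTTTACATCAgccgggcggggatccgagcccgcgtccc
Asns: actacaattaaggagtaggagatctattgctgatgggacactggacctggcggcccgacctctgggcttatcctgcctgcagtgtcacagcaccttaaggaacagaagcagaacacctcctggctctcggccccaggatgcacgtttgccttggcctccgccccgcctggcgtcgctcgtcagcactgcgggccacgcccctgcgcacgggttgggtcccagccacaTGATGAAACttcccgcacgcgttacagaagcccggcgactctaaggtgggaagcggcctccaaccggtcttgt
Herpud1: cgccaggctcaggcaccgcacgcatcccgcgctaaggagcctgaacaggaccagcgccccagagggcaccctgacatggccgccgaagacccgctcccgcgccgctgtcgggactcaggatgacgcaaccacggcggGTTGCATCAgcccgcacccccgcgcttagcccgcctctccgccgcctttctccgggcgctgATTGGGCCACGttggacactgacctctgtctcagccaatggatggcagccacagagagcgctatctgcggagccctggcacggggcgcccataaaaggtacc
Canx: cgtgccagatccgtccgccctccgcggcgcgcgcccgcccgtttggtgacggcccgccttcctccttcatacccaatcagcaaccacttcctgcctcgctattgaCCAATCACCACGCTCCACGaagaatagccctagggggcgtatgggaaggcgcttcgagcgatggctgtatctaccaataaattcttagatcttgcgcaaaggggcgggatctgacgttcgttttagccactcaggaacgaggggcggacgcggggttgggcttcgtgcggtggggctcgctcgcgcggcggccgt

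The comparison of null with wild-type kidneys asked which stress response genes differ in level when p53 is absent during kidney development. In limma's test of the 3 replicates 0 of the 35 genes passed an adjusted p of 0.05, as did 0 of 20865 probes (0%), of which 3583 had an unadjusted p under 0.05. The adjusted p of the 35 genes lay between 0.279 and 0.996. Without adjustment, 6 genes were higher in null at p under 0.05 (17.1% of the 35, with 9.24% of all genes and 9.02% of all probes), namely Atf5, Asns, Psat1, Phgdh, Psph and Slc7a1. A further 10 were lower at that level (28.6%, with 8.93% of all genes and 8.15% of all probes), namely Atf3, Atf6, Ddit3, Cebpb, Ppp1r15a, Trib3, Shmt2, Pck2, Slc3a2 and Pdia4. The median ratio of the 35 genes was −0.03, and that of all genes was 0.00, while the median size of the ratio, sign left out, was 0.27 for the 35 genes and 0.15 for all genes. An exact test that turns the signs of 3 replicates can reach p = 0.25 at the lowest. A lower level in whole tissue cannot tell fewer cells of a type from less RNA per cell.

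With loess, signs held across the replicates for 60% of the 35 genes, with 40.2% of all genes. The ratio was above 0 in all 3 replicates for 9 genes (25.7%, with 20.4% of all genes) and below 0 in all 3 for 12 genes (34.3%, with 19.7% of all genes). On all 8 arrays it was above 0 for Nupr1 and Psat1, which makes 2 genes (5.71%, with 7.58% of all genes). It was below 0 on all 8 arrays for 5 genes (14.3%, with 7.91% of all genes), Atf3, Cebpb, Shmt2, Pck2 and Slc3a2. A gene with a value missing on any array could not count here. Asns was such a gene, above 0 on the 7 arrays that gave a value. Repeat arrays of a replicate are not independent, so the 8 arrays count as 3 values. Some of these signs rest on replicate 1 ratios near 0 and turned with the processing. With the scanner program's own log ratio, the replicate 1 ratio was 0.055 for Ddit3 and 0.005 for the brighter Atf6 probe. Under median centring it was −0.025 for Atf5 and −0.002 for Phgdh.

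On slide 2 taken alone, that is without replicate 1, 28 of the 35 genes passed an adjusted p of 0.05 in limma, with 13 higher (37.1%, with 32.9% of all genes) and 15 lower (42.9%, with 27.1% of all genes). The error there comes from replicates 2 and 3 only, and from a spread pooled over probes, so these calls describe the RNA pairs of slide 2. Without replicate 2 or without replicate 3, 0 of 35 genes passed in limma, with 3 and 4 lower and 0 higher at an unadjusted p under 0.05, beside 290 and 832 of 20865 probes in either direction. With 1 value per slide, 0 of 35 genes passed in limma, and 522 of all probes had an unadjusted p under 0.05, among them 3 of the 35 genes. Scaling set how many lay on each side. Centring each array on its median, in place of loess, moved the median of all genes to 0.15 (−0.13 in replicate 1 and 0.32 on slide 2). Of the 35 genes it gave 20 higher and 7 lower calls on slide 2. The share of all genes called there under this setting was not counted, so these 2 counts have no background beside them. Relative to the shifted median of all genes, 18 of the 35 mean ratios were higher and 17 lower, whereas loess gave 16 and 19.

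**Figure D1:**
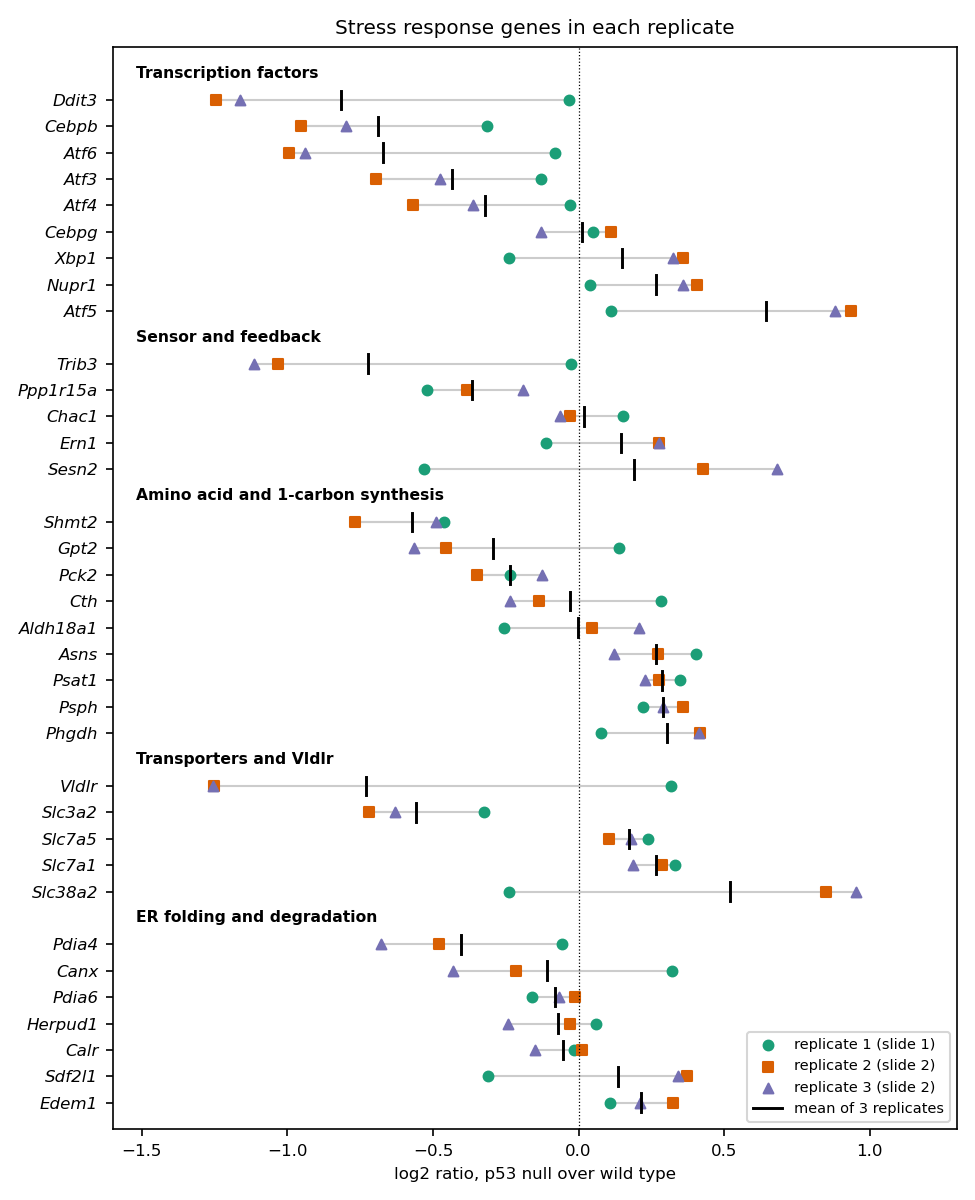
Log2 ratio of p53 null over wild type for each of the 35 tested stress response genes in replicate 1 (circle, slide 1) and replicates 2 and 3 (square and triangle, slide 2), with the mean of the 3 replicates as a black bar and genes grouped by role. Squares and triangles mostly lie close together; Cebpb, Shmt2 and Slc3a2 lie below 0 in each replicate, while Vldlr, Sesn2 and Slc38a2 change sign between replicate 1 and slide 2.

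Of the 9 transcription factors tested, 5 were below 0 in all 3 replicates (55.6%, with 19.7% of all genes). Another 2 were above 0 in all 3 (22.2%, with 20.4% of all genes). The median of the 9 was −0.32, and that of all genes 0.00. Of the 5 below 0, Atf4, Ddit3 and Atf6 had replicate 1 ratios near 0 (−0.03, −0.03 and −0.08). Cebpb encodes a C/EBP factor that acts in differentiation and acute stress. Its normalized signal (log2) was 7.78, 8.82 and 9.01 in null RNA of replicates 1, 2 and 3, and 8.10, 9.78 and 9.81 in wild-type RNA. Null was below wild type in each replicate and on 8 of 8 arrays. The ratio of −0.69 ± 0.33 (SD, n = 3), 0.620 of the wild-type level, had an unadjusted p of 0.00854 and an adjusted p of 0.279 in limma. Cebpb fell on slide 2, where its ratio was −0.88 (limma, adjusted p = 1.56e-11), and had −0.32 in replicate 1.

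Ddit3 encodes CHOP, the death-promoting factor downstream of ATF4. Its log2 signal was 7.65, 7.97 and 7.89 in null RNA, and 7.68, 9.22 and 9.05 in wild-type RNA. Null and wild type were thus nearly level in replicate 1 (ratio −0.03), while null lay far below wild type in replicates 2 and 3 (−1.25 and −1.16). The mean of −0.81 ± 0.68 had an adjusted p of 0.285 in limma. On slide 2 Ddit3 fell to 0.434 of the wild-type level (limma, adjusted p = 1.13e-14), and the ratio of slide 2 was below that of slide 1 by a difference of −1.17 (limma, adjusted p = 6.74e-09).

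Atf4 itself had a log2 signal of 9.34, 8.87 and 8.60 in null RNA and 9.37, 9.43 and 8.96 in wild-type RNA. Its ratios of −0.03, −0.57 and −0.36 (mean −0.32 ± 0.27) were below 0 in each replicate and did not pass (limma, adjusted p = 0.304). Under median centring Atf4 had −0.28 in replicate 1 and −0.08 on slide 2 (−0.15 and −0.40 relative to all genes), with a mean of −0.15. Atf3, a stress-induced factor of the same family whose window is shown above, had −0.13, −0.70 and −0.48 (mean −0.43 ± 0.29). It was below 0 on 8 of 8 arrays. Atf6, the membrane-bound factor that is cut loose under ER stress, had −0.08, −1.0 and −0.94 on its brighter probe, but 0.00, −0.14 and 0.00 on its second probe. The Atf6 value therefore depended on the probe. On slide 2 alone Atf4, Atf3 and the brighter Atf6 probe fell, with ratios of −0.47, −0.59 and −0.97.

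Atf5 went the other way. This relative of ATF4, which is also controlled through translation, had a log2 signal of 11.75, 11.55 and 11.50 in null RNA, and 11.64, 10.61 and 10.62 in wild-type RNA. Null was slightly above wild type in replicate 1 and well above it in replicates 2 and 3 (ratios 0.11, 0.94 and 0.88). The mean was 0.64 ± 0.46 (limma, adjusted p = 0.279), and on slide 2 Atf5 rose to 1.88 times the wild-type level (limma, adjusted p = 5.02e-12). With median centring the replicate 1 ratio was −0.02, and 0.10 relative to all genes. Xbp1, whose mRNA is spliced by IRE1, had −0.24, 0.36 and 0.32, and the stress-induced chromatin protein gene Nupr1 had 0.04, 0.41 and 0.36. Both rose on slide 2, while in replicate 1 Xbp1 was below 0 and Nupr1 close to it. Cebpg, a dimer partner of ATF4, had 0.05, 0.11 and −0.13. With the scanner program's own log ratio its mean was 0.26 and its slide 2 value 0.32.

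**Figure D2:**
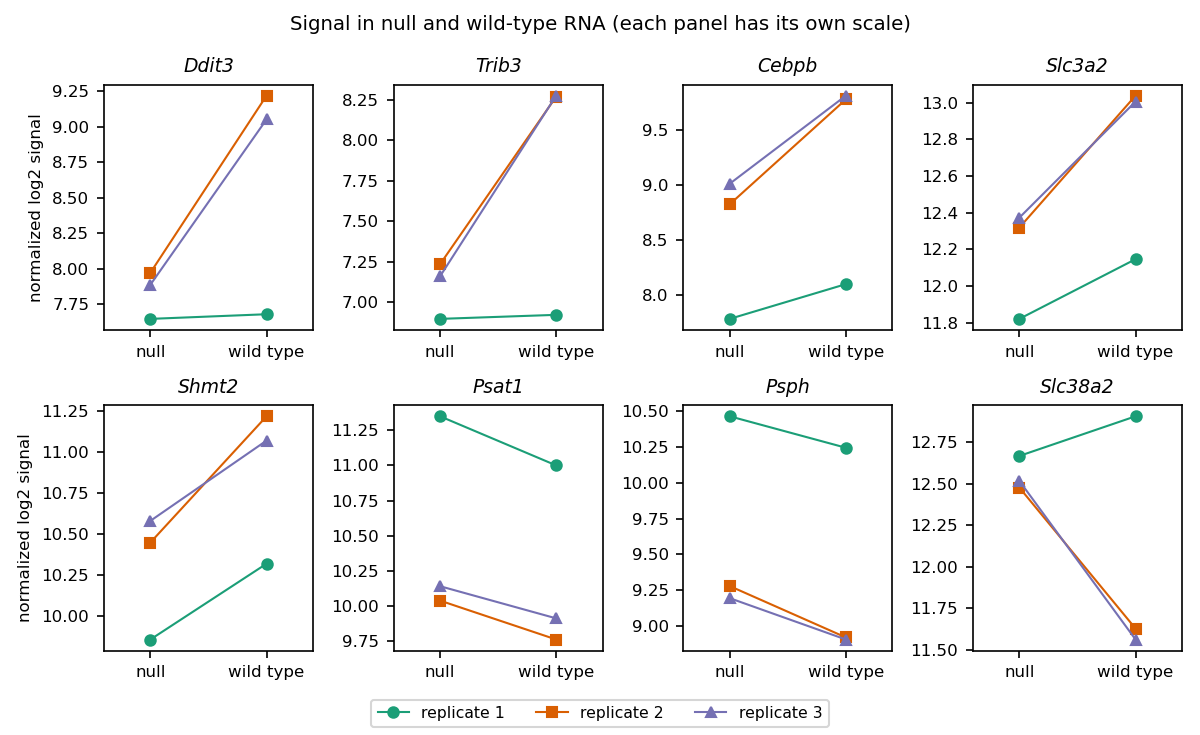
Normalized log2 signal of 8 stress response genes in null RNA (left) and wild-type RNA (right) of each replicate, joined by a line per replicate; each panel has its own scale. For Cebpb, Slc3a2 and Shmt2 all 3 lines run up to wild type, for Psat1 and Psph all 3 run down, and for Ddit3, Trib3 and Slc38a2 the line of replicate 1 differs from the lines of replicates 2 and 3.

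The regulators that feed back on the pathway did not share a direction. Trib3, a pseudokinase that restrains ATF4 and AKT, had a log2 signal of 6.90, 7.24 and 7.16 in null RNA, and 6.92, 8.27 and 8.27 in wild-type RNA. As for Ddit3, null matched wild type in replicate 1 and lay well below it in replicates 2 and 3 (ratios −0.02, −1.03 and −1.11, mean −0.72 ± 0.61; limma, adjusted p = 0.286). A second Trib3 probe had −0.04, −0.61 and −0.61. Trib3 fell on slide 2 to 0.475 of the wild-type level (limma, adjusted p = 1.39e-13), a ratio of −1.07. With the scanner program's own log ratio, which has no offset, the slide 2 value was −2.08 and the mean −1.39. That log ratio also moved Ppp1r15a to a mean of −0.66, Atf3 to −0.92 on slide 2 and Ern1 to 0.74 on slide 2. Relative to all genes under median centring the replicate 1 ratio of Trib3 was 0.06.

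Ppp1r15a encodes GADD34, which brings a phosphatase to eIF2 and so ends the translational block. Its log2 signal was 7.35, 7.42 and 7.64 in null RNA, and 7.87, 7.80 and 7.83 in wild-type RNA. Null was below wild type in each replicate (−0.52, −0.38 and −0.19, mean −0.37 ± 0.16), and here replicate 1 had the lowest ratio. It did not pass (limma, adjusted p = 0.279). Sesn2, a stress-inducible inhibitor of mTORC1, had −0.53 in replicate 1 but 0.43 and 0.68 in replicates 2 and 3. Its ratios on the slides thus had opposite signs, with a difference of 1.08 (limma, adjusted p = 6.5e-08). Ern1, the gene of the sensor IRE1, had −0.11, 0.28 and 0.28. Chac1, an enzyme that breaks down glutathione, had 0.15, −0.03 and −0.06.

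Enzymes of serine synthesis were higher in null in each replicate by their brightest probes. Phgdh catalyses the first step from a glycolytic intermediate, Psat1 the next and Psph the last. The log2 signal of Psat1 was 11.35, 10.04 and 10.14 in null RNA, and 11.00, 9.76 and 9.91 in wild-type RNA. Psat1 was above wild type on 8 of 8 arrays, with ratios of 0.35, 0.28 and 0.23 (mean 0.28 ± 0.06, 1.22 times the wild-type level). The replicates differed little, and yet the ratio did not pass over all probes (limma, adjusted p = 0.279). Psph had 0.22, 0.36 and 0.29 (mean 0.29 ± 0.07), with 0.32, 0.11 and −0.05 on a second probe. Phgdh had 0.08, 0.42 and 0.42 (mean 0.30 ± 0.20). Its other probes had −0.14 and −0.62 in replicate 1, so the sign in replicate 1 depended on the probe. All 3 enzyme genes rose on slide 2 by their brightest probes (limma, adjusted p = 0.00275 for Psat1, 0.000236 for Psph and 8.18e-06 for Phgdh). The second Psph probe had 0.03 there (limma, adjusted p = 0.763).

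Asns, the asparagine synthetase gene and a classical ATF4 target, had a log2 signal of 11.51, 12.37 and 12.13 in null RNA, and 11.11, 12.10 and 12.01 in wild-type RNA. Null was above wild type in each replicate (0.40, 0.27 and 0.12, mean 0.27 ± 0.14; limma, adjusted p = 0.284). Shmt2, the mitochondrial enzyme that splits serine to feed the folate cycle, had 9.86, 10.45 and 10.58 in null RNA, and 10.32, 11.22 and 11.07 in wild-type RNA. It was below wild type on 8 of 8 arrays, with ratios of −0.46, −0.77 and −0.49. The mean of −0.57 ± 0.17, 0.672 of the wild-type level, had the smallest unadjusted p of the 35 genes (limma, unadjusted p = 0.00329, adjusted p = 0.279). Shmt2 uses the serine that Phgdh, Psat1 and Psph make, and by the brightest probes its sign was opposite to theirs in each replicate, although under median centring the replicate 1 ratio of Phgdh lay at about 0 (0.13 relative to all genes).

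The remaining synthesis enzymes varied. Pck2, the mitochondrial enzyme that makes phosphoenolpyruvate, had −0.24, −0.35 and −0.13 and was below 0 on 8 of 8 arrays, but its mean turned to 0.02 under median centring (−0.13 relative to all genes). Gpt2, a mitochondrial alanine aminotransferase, had 0.14, −0.46 and −0.57, and Cth, which makes cysteine from cystathionine, had 0.28, −0.14 and −0.23. Gpt2 and Cth fell on slide 2 (limma, adjusted p = 3.72e-07 and 0.0251) and lay above 0 in replicate 1. Cth turned to 0.20 on slide 2 under median centring (−0.12 relative to all genes). Aldh18a1, which opens proline synthesis, had −0.26, 0.05 and 0.21.

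Among the transporters, a heavy chain and its light chain had ratios of opposite sign in each replicate. Slc3a2 encodes the heavy chain CD98 that carries several amino acid exchangers to the surface, and Slc7a5 encodes its partner LAT1, which imports large neutral amino acids. The log2 signal of Slc3a2 was 11.82, 12.32 and 12.37 in null RNA, and 12.15, 13.04 and 13.01 in wild-type RNA. Null was below wild type on 8 of 8 arrays (−0.33, −0.72 and −0.63, mean −0.56 ± 0.21; limma, unadjusted p = 0.00543, adjusted p = 0.279), and a second probe had −0.15, −0.42 and −0.35. Slc7a5 had 0.24, 0.11 and 0.18 (mean 0.17 ± 0.07; limma, adjusted p = 0.311). Slc7a1, which imports arginine and lysine, had 0.33, 0.29 and 0.19 (mean 0.27 ± 0.07; limma, adjusted p = 0.279). On slide 2 Slc3a2 fell and Slc7a1 rose, whereas Slc7a5 missed the threshold (limma, adjusted p = 2.29e-09, 0.00518 and 0.0822).

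Slc38a2 and Vldlr changed sign between the slides. Slc38a2 encodes SNAT2, a sodium-coupled importer of small neutral amino acids that cells raise when starved of them. Its log2 signal was 12.67, 12.48 and 12.52 in null RNA, and 12.90, 11.63 and 11.56 in wild-type RNA. Null was below wild type in replicate 1 and above it in replicates 2 and 3 (−0.24, 0.85 and 0.95). The difference between slides was 1.14 (limma, adjusted p = 1.23e-08). A second probe had −0.25, 0.21 and 0.14, which keeps the signs at a smaller size. Vldlr, a lipoprotein receptor induced by ATF4 in other cells, had a log2 signal of 10.57, 7.89 and 7.63 in null RNA, and 10.25, 9.14 and 8.88 in wild-type RNA. Its ratio was 0.32 in replicate 1 and −1.25 and −1.26 in replicates 2 and 3, a difference between slides of −1.57 (limma, adjusted p = 2.28e-11), which no other gene of the 35 exceeded in size.

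The 7 genes of ER folding and degradation tested had ratios of a median size of 0.11 as the mean of 3 replicates, with 0.15 for all genes. On slide 2 the median size was 0.27, with 0.22 for all genes. Pdia4, a disulfide isomerase, had −0.06, −0.48 and −0.68 (mean −0.40 ± 0.32; limma, adjusted p = 0.288) and fell on slide 2 (limma, adjusted p = 6.87e-08). The lectin chaperones Calr and Canx hold newly made glycoproteins in the ER. Calr had −0.02, 0.01 and −0.15, and Canx, whose window with the ER stress element is shown above, had 0.32, −0.21 and −0.43. All 3 Canx probes were above 0 in replicate 1 and below 0 on slide 2, where Canx fell (limma, adjusted p = 0.000365), although median centring turned that value to 0.16 (−0.16 relative to all genes). Pdia6, another disulfide isomerase, had −0.16, −0.01 and −0.07 on its brightest probe, and −0.23, 0.60 and 0.57 on its dimmest. The Pdia6 value thus depended on the probe on slide 2.

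Of the degradation factors, Herpud1, which recruits the ER ubiquitin ligase and whose window above holds the letters of both elements, had 0.06, −0.03 and −0.24. Edem1, a lectin that hands misfolded glycoproteins to degradation, had 0.11, 0.32 and 0.21 (mean 0.21 ± 0.11; limma, adjusted p = 0.294) on its brightest probe and −0.25, 0.07 and 0.16 on another. Sdf2l1, a chaperone cofactor of the ER, had −0.31, 0.37 and 0.34 and rose on slide 2. Edem1 also rose on slide 2 by its brightest probe (limma, adjusted p = 0.00183). Its other probes had 0.12 and 0.14 there and missed the threshold (limma, adjusted p = 0.151 and 0.0908). Under median centring the mean ratios of Calr, Canx, Herpud1 and Pdia6 turned to 0.22, 0.19, 0.06 and 0.21, above 0, and relative to all genes to 0.07, 0.03, −0.10 and 0.06.

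**Figure D3:**
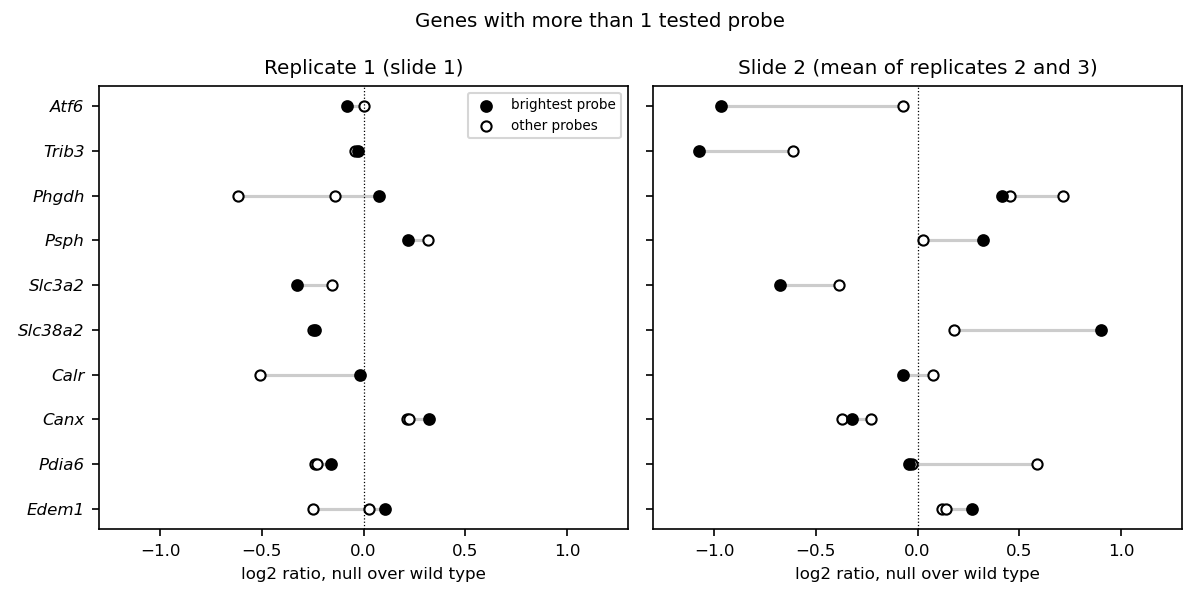
Log2 ratio of null over wild type for the 10 stress response genes with more than 1 tested probe, with the brightest probe as a filled circle and the other probes as open circles, in replicate 1 (left) and as the mean of replicates 2 and 3 (right). Probes of Trib3 and Slc3a2 lie below 0 in both panels, and those of Canx lie above 0 in replicate 1 and below 0 on slide 2; Atf6, Slc38a2 and Pdia6 have probes far apart on slide 2, and Phgdh and Calr have probes far apart in replicate 1.

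The difference between slides was itself tested. It passed in limma for 9 genes with a higher ratio on slide 2 (25.7%, with 28.6% of all genes) and for 12 with a lower one (34.3%, with 19.3% of all genes). Slide 1 holds replicate 1 alone, so the error of this test comes from replicates 2 and 3, and slide and replicate cannot be told apart. The sign in replicate 1 was opposite to that on slide 2 for 13 of the 35 genes (37.1%, with 52.8% of all genes). Over the 35 genes (genes are not replicates) the correlation between replicates 2 and 3, which share a slide and possibly their wild-type RNA, was 0.97, and 0.94 over all 12000 genes. Between replicate 1 and slide 2 it was 0.06, and −0.10 over all genes.

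**Figure D4:**
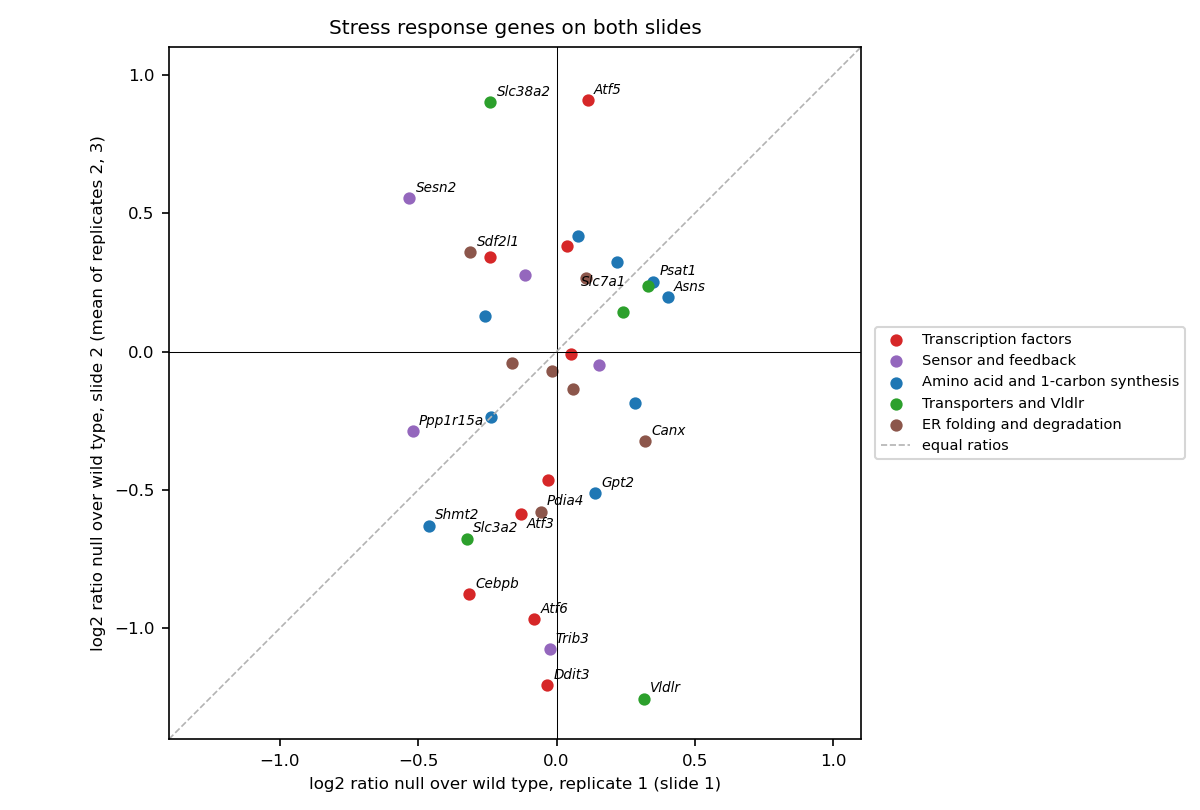
Log2 ratio of null over wild type in replicate 1 on slide 1 (x axis) and as the mean of replicates 2 and 3 on slide 2 (y axis) for the 35 stress response genes, coloured by role, with a dashed line of equal ratios. Psat1, Slc7a1 and Asns lie above 0 on both axes and Shmt2 below 0 on both, while Ddit3, Trib3 and the brighter Atf6 probe have about 0 in replicate 1 and strongly negative ratios on slide 2.

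Genes that carry the C/EBP-ATF response element did not share a direction. It was found in the windows of 8 tested genes, Atf3, Chac1, Trib3, Asns, Nupr1, Herpud1, Pck2 and Vldlr, and the mean ratio was above 0 for 3 of them and below 0 for 5. On slide 2, 2 of the 8 rose and 4 fell, beside 32.9% and 27.1% of all genes. Trib3 and Asns, whose windows are printed above, both hold the element and had mean ratios of −0.72 and 0.27. Those windows were picked because their genes behaved differently, so the pair is an example only. Slc7a11 and Pycr1 hold the element too but gave no ratio.

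Neighbouring genes of the same pathways were read from lists outside the 39 genes. Each of these lists had 0 genes past an adjusted p of 0.05 in limma over the 3 replicates. Of all genes, 9.24% were higher and 8.93% lower at an unadjusted p under 0.05, and on slide 2 32.9% rose and 27.1% fell, which are the shares to set beside each count below. Among 26 other reported ATF4 targets tested of 28 listed, 19 had a mean ratio below 0 and 10 an unadjusted p under 0.05 on the low side, with none on the high side (38.5% and 0%, median −0.21). On slide 2, 16 fell and 2 rose (61.5% and 7.69%). The lower genes named by smallest p were Klhl24 (−0.51 ± 0.22), an adaptor of a ubiquitin ligase, Eif4ebp1 (−0.54 ± 0.30), the repressor of cap-dependent translation, and the angiogenic factor gene Vegfa (−0.93 ± 0.56). The higher ones were the glycine transporter gene Slc6a9 (0.16 ± 0.08), the neutral amino acid transporter gene Slc1a4 (0.06 ± 0.04) and Rit1 (0.03 ± 0.02), none of which passed on slide 2. Relative to all genes under median centring 19 of the 26 were lower.

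The aminoacyl-tRNA synthetases, which charge tRNAs and include ATF4 targets, were split. Their list also held Xpot, the gene of a tRNA export receptor and not a synthetase (mean ratio 0.09), which is included in the counts below. Of 17 tested of 19 listed, 3 were higher and 2 lower at an unadjusted p under 0.05 in limma (17.6% and 11.8%, median 0.07), and on slide 2 8 rose and 3 fell (47.1% and 17.6%). Aars, for alanine, had 0.06, 0.78 and 0.92, Wars, for tryptophan, had 0.05, 0.72 and 0.73, and Tars, for threonine, had 0.14, 0.41 and 0.26. Eprs, for glutamate and proline, had −0.21, −0.42 and −0.27, and Qars, for glutamine, had −0.12, −0.48 and −0.35. These 5 were named because they had 1 sign in all 3 replicates, and Aars and Wars were close to 0 in replicate 1. The mean ratio was above 0 for 11 of the 17, and for 13 relative to all genes under median centring.

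Other ER chaperones and degradation factors also went both ways. Of 39 tested of 42 listed, 6 were higher and 4 lower at an unadjusted p under 0.05 in limma (15.4% and 10.3%, median 0.06), and on slide 2 15 rose and 9 fell (38.5% and 23.1%). P4hb, the archetypal disulfide isomerase, had −0.73, −0.69 and −0.36, Kdelr3, a receptor that retrieves ER proteins, had −0.21, −0.55 and −0.44, and Os9, a degradation lectin, had −0.12, −0.23 and −0.30. Serp1, a translocon protein, had 0.20, 0.52 and 0.51, the ER stress marker Creld2 had 0.17, 0.42 and 0.48, and the thioredoxin-domain gene Txndc11 had 0.28, 0.36 and 0.25. These 6 were named because they had 1 sign in all 3 replicates, and each had that sign on 8 of 8 arrays. The mean ratio was above 0 for 22 of the 39, and for 26 relative to all genes under median centring. Hspa5, the gene of the central ER chaperone BiP, was added after its values were seen and had −0.19, −0.18 and −0.12.

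Of the other sensors and eIF2 factors, 18 of 22 listed were tested, with 1 higher and 0 lower at an unadjusted p under 0.05 in limma (5.56% and 0%, median 0.02). Their sign in replicate 1 was opposite to that on slide 2 for 15 of 18 (83.3%, with 52.8% of all genes), and on slide 2 9 rose and 2 fell (50% and 11.1%). The eIF2 kinase genes Eif2ak2 (PKR) and Eif2ak3 (PERK) had 0.33, 0.20 and 0.20, and 0.21, 0.23 and 0.13. Eif2s1, the gene of the eIF2 subunit that is phosphorylated, had 0.08, 0.30 and 0.18. These 3 were named for lying above 0 in each replicate.

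Genes induced by the hypoxia factor HIF moved with slide 2 and share members with the ATF4 targets, namely Vegfa, Ddit4 and Ndrg1. All 17 tested HIF-induced genes fell on slide 2, with a median of −2.20, whereas their median in replicate 1 was −0.06. Over the 3 replicates 13 of them (76.5%) were lower at an unadjusted p under 0.05 in limma. Egln3 had −0.32, −1.31 and −1.29, and Egln1 had −0.24, −1.43 and −1.44; both encode oxygen-sensing hydroxylases. All 15 tested glycolytic enzyme genes fell on slide 2 too, with a median of −1.71 there and −0.25 in replicate 1. Ddit3, Trib3, Vldlr and the brighter Atf6 probe fell on slide 2 in the same RNA pairs, and what part the HIF-induced programme had in those values was not tested.

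Cytosolic heat shock genes, which answer to misfolded protein outside the ER, split by member. Hspa1a and Hspa1b, near-identical copies of the inducible HSP70 gene whose probes may share signal, had −0.44, −2.80 and −2.71, and −0.37, −2.18 and −1.88. Hsp90ab1 had −0.53, −0.56 and −0.01. The co-chaperone genes Dnaja1 and Hsph1 had 0.26, 1.03 and 0.76, and 0.23, 0.90 and 0.57, and Hsp90aa1 had 0.26, 0.36 and 0.08. On slide 2, 7 of 11 rose and 3 fell (63.6% and 27.3%), and 3 were higher and 2 lower at an unadjusted p under 0.05 over the replicates (27.3% and 18.2%; limma).

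**Figure D5:**
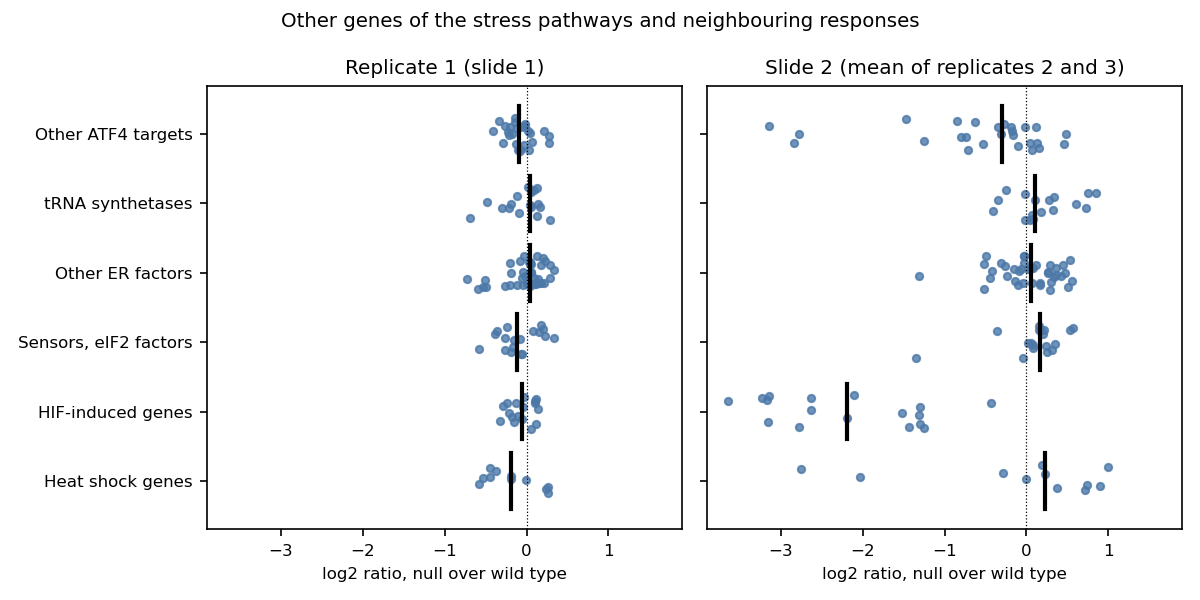
Log2 ratio of null over wild type for single genes (points) of 6 lists outside the 39 stress response genes, with the list median as a black bar, in replicate 1 (left) and as the mean of replicates 2 and 3 (right). The HIF-induced genes centre on −0.06 in replicate 1 and on −2.20 on slide 2.

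The tissue label was checked against marker genes, whose part in the stress gene values was not tested. Of 22 kidney genes, 19 were well above background on all 8 arrays in null RNA and 18 in wild-type RNA. Summed linear signals of 9 liver markers with a probe ranged over the replicates from 2844 to 5317 in null RNA and from 2048 to 3459 in wild-type RNA, and Fga and Ttr did not rise well above background anywhere. Macrophage markers ranged from 2656 to 4134 in null RNA and from 2459 to 2532 in wild-type RNA, with 8 of 9 markers in null and 7 of 9 in wild type above background throughout. Stromal markers ranged from 85433 to 91536 in null RNA and from 102843 to 122961 in wild-type RNA. These ranges rest on 3 replicates over both slides, and how often such ranges lie apart over all genes was not examined. Endothelial markers ranged from 17254 to 18832 in null RNA and from 13049 to 18095 in wild-type RNA. Of 12 adrenal markers with a probe, 5 were well above background on all 8 arrays in null and in wild-type RNA, and Cyp11a1, Cyp21a1, Th and Dbh on no array. Adrenal sums ranged from 2112 to 3807 in null RNA and from 2163 to 2244 in wild-type RNA. Of 10 muscle markers, 8 were above background throughout in null and in wild-type RNA, and Ckm on no array. Muscle sums ranged from 1356 to 2159 in null RNA and from 1312 to 1796 in wild-type RNA. Of 9 erythroid markers with a probe, 7 in null RNA and 6 in wild-type RNA were above background throughout, and the sums ranged from 50746 to 73501 in null RNA and from 52608 to 67930 in wild-type RNA. Of the 7 erythroid markers tested, 6 had opposite signs in replicate 1 and on slide 2 (85.7%, with 52.8% of all genes). On slide 2, 3 rose and 2 fell in limma (42.9% and 28.6%, with 32.9% and 27.1% of all genes). Hbb-y and Hbb-bh1 had ratios of −2.602 and −1.688 there, with 0.465 and 0.799 in replicate 1. Hba-a1, Alas2 and Slc4a1 had 1.104, 1.815 and 1.721 there, with −0.497, −0.486 and −0.314 in replicate 1. The cause of these differences was not tested.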

How the data were processed

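Gene expression in 8 arrays with 2 colours was measured from p53 null and p53 wild-type embryonic kidney RNA. The authors deposited each array's scanner output, in which spots and local background are given as linear intensity. Feature Extraction 10.5.1.1 made it, according to the file headers, while the submitters' processing notes name version 6.1. Per the file headers, the program's own log ratio there sets red against green in log10. The value table deposited by the authors is also in log10 and equalled the program's log ratio turned to null over wild type on each array (correlation 1, largest difference 4.94e-06), which settles its scale and direction. Its column medians were 0.00829, −0.00244, 0.00423 and 0.00154 in replicate 1, 0.000833 and 0.00638 in replicate 2, and 0.00645 and 0.0111 in replicate 3. It left 7732 to 14364 of 43379 spots per array empty.

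Median spot signals, used because the files hold no mean as had been planned, were background-corrected with normexp (offset 50, which shrinks ratios of dim probes) and normalized by loess within each array in limma 3.58.1 (R 4.3.3). The 1639 control spots had no weight and were dropped, outlier spots were set to missing, and no spot was saturated. Ratios were turned to log2 null over wild type, averaged by dye orientation and then within each replicate. Normalized signals per genotype came from the same arrays after quantile scaling of their mean signal. They serve for comparison within a probe and replicate. The marker sums pool probes, and their ranges span replicates, so these are only a rough description. Probes were named through RefSeq accessions in the GRCm38.p6 annotation (25097 of 41174), and the brightest kept probe stood for a gene. limma's moderated fit tested the 3 values against 0, two-sided, with 4.22 degrees of freedom, and Benjamini-Hochberg adjustment ran over all 20865 probes. This fit was also run on simulated data with 3 independent values per probe. Those data lacked the slide structure of the real replicates, so the run says nothing about its effect. Slide 2 was fitted alone (28.4 degrees of freedom, most of them from the spread pooled over probes), and slides were compared with slide as a factor.

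All listed genes with a kept probe are named. From each list outside them, up to 3 genes per direction with the smallest p among those of the same sign in all 3 replicates are named, together with Trp53. The genes and lists were chosen with earlier results of these data known. Alternatives covered background, normalization, filters, the probe per gene, replicate and slide blocks, and each replicate left out.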

Additional observations from a re-analysis of the deposited data

How the results depend on the processing

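Of all probes, 0 passed in limma under the program's own log ratio, offset 16, median centring, no filter, a strict filter, the mean of a gene's probes and 1 value per slide, with 290 to 5261 at an unadjusted p under 0.05 over these and the fits without replicate 2 or 3, where 0 passed as well. A random replicate block over the 8 arrays gave 602 higher and 534 lower, and 6 of the 35 genes: Atf5 higher, and Ddit3, Cebpb, Trib3, Shmt2 and Slc3a2 lower. Slide as a fixed block gave 4148 and 4373 with 23 of the 35 genes, and slide as a random block, fitted on all 8 arrays because 3 values gave no correlation (chosen after seeing the data), gave 0 and 1. Leaving out 1 replicate gave 0 to 6421 higher and 0 to 5268 lower probes, and 0 to 28 of the 35 genes, with 28 only without replicate 1. At an unadjusted p under 0.05, the higher count of 6 became 2 with the program's log ratio, 3 with median centring, 10 with slide as a fixed block, 0 with 1 value per slide and 0 to 14 without 1 replicate. The lower count of 10 became 4 with median centring, 3 with 1 value per slide, and 3 to 15 without 1 replicate. The count over all 20865 probes, both directions together, moved as well. It was 3583 in the main fit, 3730 with the program's log ratio, 1498 with median centring and 10109 with slide as a fixed block. With 1 value per slide it was 522, and without 1 replicate 290 to 12557. Median centring gave 20 higher and 7 lower genes on slide 2, 19 positive and 3 negative slide differences, and a median of 0.17, with 0.15 for all genes. The program's log ratio gave 5 positive and 7 negative slide differences. Shares of all genes for these slide counts were not counted under the 2 settings, so whether the 35 genes moved apart from all genes was not tested. Under median centring the ratio turned to 0.12 for Aldh18a1, 0.22 for Calr, 0.19 for Canx, 0.17 for Cth, 0.056 for Herpud1, 0.021 for Pck2 and 0.21 for Pdia6. Aldh18a1 also turned to 0.0093 with offset 16, Cebpg to −0.024 without a filter, Pdia6 to 0.046 with the mean of its probes, and Cth to 0.049 with slide as a fixed block, as a random block and with 1 value per slide. Without 1 replicate, the ratios that changed sign ranged over −0.11 to 0.13 for Aldh18a1, −0.32 to 0.053 for Canx, −0.039 to 0.082 for Cebpg, −0.047 to 0.062 for Chac1, −0.19 to 0.073 for Cth, −0.14 to 0.015 for Herpud1 and −0.052 to 0.55 for Sesn2. The cause of these changes was not tested. Signal over background limits Cebpg, Mthfd2 and Slc7a11, and offset 50 shrinks ratios of dim probes such as those of Trib3 and Ern1.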
